A study of Mus musculus with 16 samples.

Results

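The Zfp genes are the mouse zinc finger genes that carry the symbol Zfp followed by a number. They were selected on their level in sorted rod photoreceptors: protein-coding genes of that name with a mean of at least 10 CPM (counts scaled to library size) over all 16 libraries of the authors' gene table. 260 of 363 protein-coding Zfp genes met this, out of 45594 genes in the table. Among the 103 others, 27 had a mean under 1 CPM and 76 lay between 1 and 10 CPM. Just inside the limit were Zfp358, at 10.03 CPM, Zfp712, at 10.04 CPM, and Zfp367, at 10.1 CPM, and just outside were Zfp112, at 9.748 CPM, Zfp873, at 9.67 CPM, and Zfp747, at 9.642 CPM.

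Rods were sorted by flow cytometry from retinas of C57BL/6J mice with the Nrlp-GFP transgene, in which the promoter of Nrl, a rod transcription factor, drives green fluorescent protein. Total RNA of rods aged 3M, 12M, 18M and 24M (months) was sequenced in 4 libraries per age. No agent was given, every age carried the same transgene, and the text names a second line that lacks Nrl although all 16 libraries are labelled Nrlp-GFP. The study's design calls the 4 libraries per age biological replicates. The sources used here do not say whether a library is 1 mouse or a pool, so the p-values measure the spread between these libraries. The study asked how the transcriptome of rods changes as mice age.

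A C2H2 zinc finger is a short fold in which cysteines and histidines hold a zinc ion, and a row of such fingers can read a stretch of DNA. The largest group of these proteins in mammals adds a KRAB domain, which recruits the corepressor Trim28 (KAP1) and through it the histone methyltransferase Setdb1, HP1 proteins (Cbx1, Cbx3, Cbx5) and deacetylase complexes. KRAB zinc finger proteins silence transposable elements and keep imprinted marks, and their genes lie in clusters that differ widely between species. Zfp genes without KRAB include transcription factors, RNA-binding proteins and ubiquitin ligases, and several have human counterparts with eye or brain disease.

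The libraries held between 20404434 and 28529834 estimated counts assigned to annotated genes. All 17 rod marker genes were measured, with a summed level of 43650 to 52370 CPM in the 24M libraries against 53672 to 57823 CPM in the 3M libraries. Summed cone markers stayed at or below 134 CPM, Müller glia markers at or below 429.6 CPM and microglial markers at or below 5.70 CPM in all 16 libraries, and 6 of 8 microglial genes, among them P2ry12 and Tmem119, never reached 1 CPM. Summed bipolar markers lay between 359.0 and 427.5 CPM and amacrine markers between 124.4 and 168.6 CPM. Of 7 tested cone markers, 1 was higher at 24M against 3M, Gnb3 (log2 0.97, SE 0.17, edgeR adjusted p = 0.0023), and 0 lower. Of 17 rod markers, 1 was lower, Gngt1 (log2 -0.45, SE 0.12, edgeR adjusted p = 0.038), and 0 higher, with a median log2 fold change of -0.24. Of 10 Müller glia markers 0 passed, with medians of 0.44 at 12M, 0.36 at 18M and 0.46 at 24M. Of all 12177 tested genes, 323 were higher and 195 lower at 24M. One axis, the first principal component, took 53% of the variance between libraries. Replicate 4 at 3M, replicate 4 at 12M and replicate 3 at 24M stood at one end of it and replicate 3 at 18M at the other. A bulk level cannot tell fewer cells of a type from less RNA per cell.

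The 260 Zfp genes spanned a wide range of levels around a modest middle. Their mean level over 16 libraries had a median of 29.9 CPM. By the authors' means, 78 lay under 20 CPM and 64 above 50 CPM. Per length they had a median of 11.1 CPM per kilobase of transcript, a description of genes selected on level. KRAB genes sat lower than the other members. A KRAB A box, read as at least 9 of 14 conserved residues in the protein translated from the GENCODE coding sequence, was found in 146 members, with a median of 9.01 CPM per kilobase, against 18.0 in the 114 members without it. Their transcripts did not differ much in length, with a median of 3232 bases with the KRAB pattern and 3397 bases without. Finger number went the other way: the median was 12 C2H2 fingers with the KRAB pattern and 7 without. 7 members had no C2H2 finger by the pattern searched, among them Zfp36l2, whose fingers are of another type, and Zfp703. Being selected for a mean of at least 10 CPM, these genes say nothing of weakly expressed Zfp genes.

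**Figure D1:**
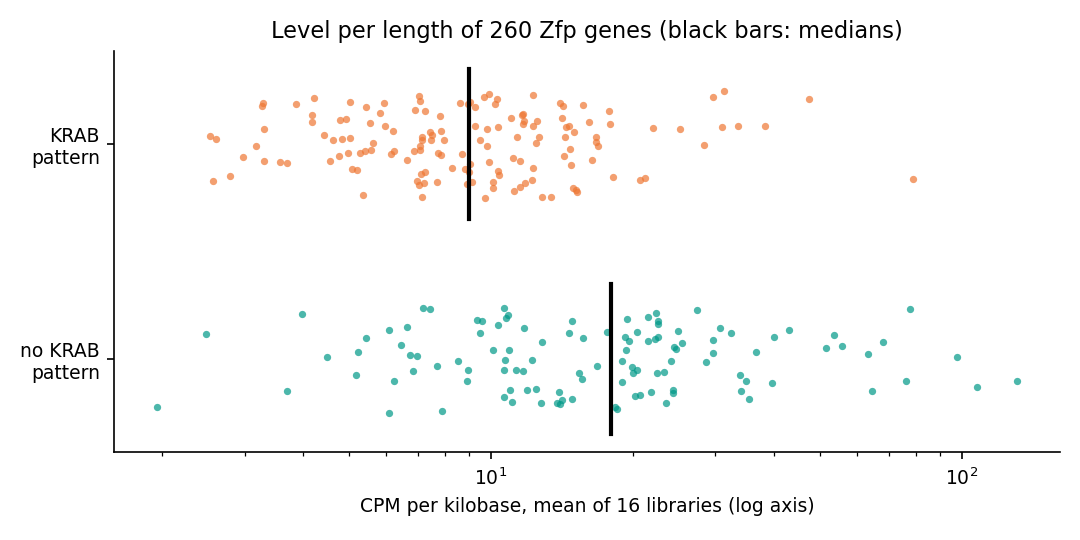
Level per length of the 260 Zfp genes, as CPM per kilobase of transcript averaged over 16 libraries (log axis), with 1 point per gene in 2 rows, KRAB pattern above and no KRAB pattern below. Black bars mark the medians of 9.01 CPM per kilobase with the KRAB pattern and 18.0 without it.

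The genes clustered on a few chromosomes. Chromosome 7 carried 64 members, 40 of them with the KRAB pattern, chromosome 17 carried 32, 26 of them KRAB, and chromosome 13 carried 23, 19 of them KRAB. Related sequence limited some values. The share of a gene's 31-base stretches, the length kallisto matches on, that another gene also holds had a median of 1.78%. It exceeded 20% in 34 members, and reached 98.4% for Zfp781, 88.9% for Zfp960 and 86.4% for Zfp97, so the split of reads among these and their copies is uncertain. Exons of 62 members overlapped exons of a gene on the other strand. The library kit keeps the strand, but no source used here says whether quantification used it.

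The most abundant members per length were mostly not KRAB genes. Zfp444, a SCAN-domain zinc finger gene, led with 131 CPM per kilobase averaged over 16 libraries, ranging from 115 to 156. This measure divides each transcript's counts by its own length, so counts assigned to short transcripts weigh more. Zfp444 had 154 to 212 CPM and a count-weighted mean length of 3610 bases, so its lead rests on that division. An order by whole-gene length was not made. Zfp106, an RNA-binding protein whose loss causes motor neuron degeneration in mice, averaged 108 CPM per kilobase. Zfp207, whose human counterpart binds the spindle checkpoint protein BUB3, averaged 97.7. These 3 were followed by a KRAB gene, Zfp445, which together with Zfp57 keeps imprinted methylation in mouse embryos. Zfp445 averaged 78.7 CPM per kilobase but ranged from 38.9 to 119 among libraries. Zfp57 itself was no member, with a mean of 0.147 CPM. Zfp638, a nuclear RNA-binding protein, averaged 77.6 CPM per kilobase, Zfp280d 76.1 and Zfp385a, a regulator of p53 targets, 68.0. Zfp644, at 63.2, was ninth on this scale, just behind Zfp787 at 64.6; the named genes were picked by TPM, on which Zfp644 ranked ahead. The neighbours Zfp445, Zfp638 and Zfp280d differed by less than the spread of any of the 3 between libraries.

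All 260 members passed the filter of 5 CPM in 4 or more libraries and were tested among 12177 genes with edgeR's quasi-likelihood test and Benjamini-Hochberg adjustment over all of them. Few changed with age, and their share was near that of all genes. At 24M against 3M, 6 members (2.31%) were higher and 2 (0.769%) lower at an adjusted p under 0.05. Of all tested genes 2.65% were higher and 1.6% lower. At 18M against 3M 4 members were higher (1.54%) and 0 lower, where 1.68% of all genes were higher and 0.961% lower. 9 members were lower there at an unadjusted p under 0.05, and DESeq2 called 1, beside 709 and 198 of all 12177 genes. At 12M against 3M 1 member, Zfp418, was higher and 0 were lower, beside 0.977% and 0.411% of all genes. 5 members were lower at an unadjusted p under 0.05 there, and DESeq2 called 0, beside 535 and 99 of all 12177 genes. Any difference among the 4 ages was found in 4 members, Zfp418, Zfp703, Zfp687 and Zfp839, beside 2.82% of all genes. A linear term of age was positive in 6 members and negative in 2, beside 2.84% and 1.95% of all genes, and these were the 8 genes called at 24M. The median log2 fold change over the 260 was 0.07 in 12M, 0.08 in 18M and 0.01 in 24M rods, against -0.003, 0.01 and 0.01 over all tested genes. Its sign at 12M and 24M changed with each library's slope of log2 CPM on transcript length as a covariate. The median was then -0.0793 in 12M, 0.0238 in 18M and -0.094 in 24M rods, so at 18M the sign held.

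**Figure D2:**
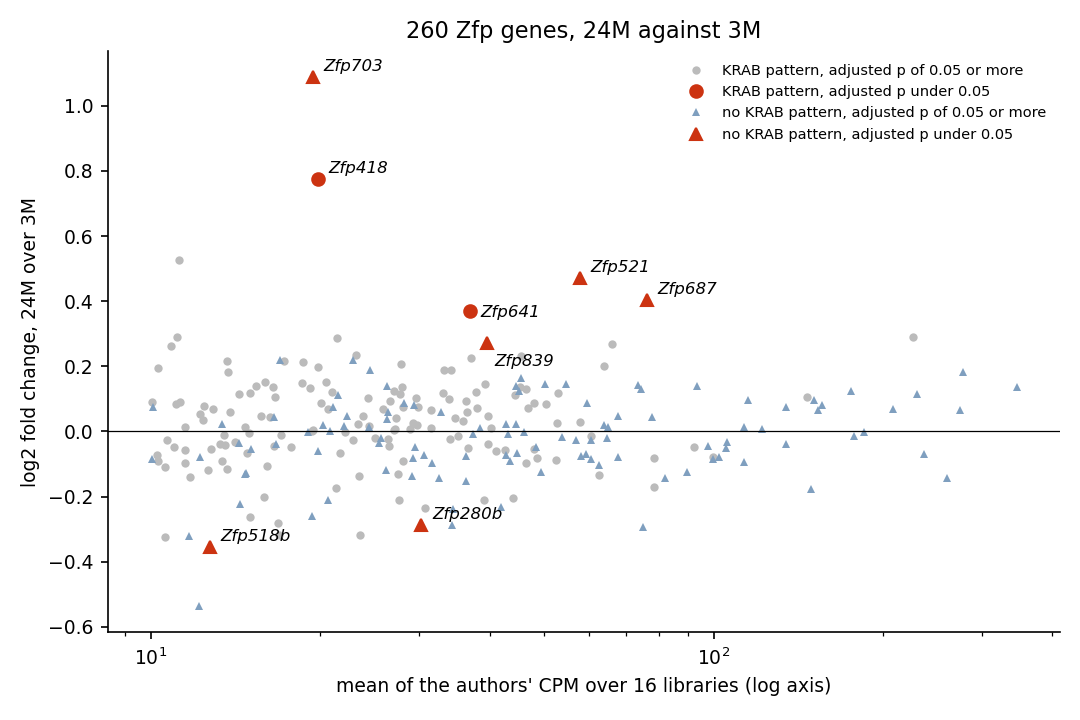
Log2 fold change, 24M over 3M, of the 260 Zfp genes against the mean of the authors' CPM over 16 libraries (log axis), with circles for the KRAB pattern, triangles for none and red for an adjusted p under 0.05. Zfp703 and Zfp418 stand above the rest, and 2 red triangles, Zfp280b and Zfp518b, lie below 0.

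These counts moved with the set of libraries and the model. Without replicate 4 at 12M, replicate 3 at 18M and replicate 3 at 24M, the 3 libraries that the authors' normalized table does not use, 25 members (9.62%) were higher and 11 (4.23%) lower at 24M, beside 12.2% and 11.4% of all genes. At 12M the same 13 libraries gave 85 members higher (32.7%) and 31 lower (11.9%), beside 19.5% and 18.8% of all genes.

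Zfp703 showed the largest rise. Its protein belongs to the NET family of zinc finger repressors, with Zfp503, and its human counterpart is amplified in breast cancers. It had 28.4, 29.4, 35.2 and 24.2 CPM in the 24M libraries, against 12.1, 14.5, 13.5 and 14.96 CPM in the 3M libraries. All 24M libraries lay above all 3M libraries. The 18M libraries had 19.8, 22.5, 16.5 and 18.98 CPM and the 12M libraries 18.1, 15.03, 15.5 and 18.8 CPM, between the oldest and the youngest. Zfp703 (ENSMUSG00000085795, chr8:26977336-26981461, plus strand, GRCm38) was 2.13-fold higher at 24M (log2 1.09, SE 0.13, edgeR adjusted p = 4.5e-05) and 1.41-fold higher at 18M (log2 0.50, SE 0.13, adjusted p = 0.048). Without any 1 of the 16 libraries the adjusted p at 24M stayed at or below 0.00039. The 18M call was lost without any 1 of 12 libraries, with adjusted p up to 0.15, and with no filter on low values (adjusted p = 0.17). A 587-base transcript took 46.8% of its estimated counts, and 13.5% of its exonic bases lie opposite exons of another gene.

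Zfp418, a KRAB gene with 14 fingers whose human counterpart is described as a transcriptional repressor, was higher at each later age. It had 25.01, 25.9, 21.3 and 27.2 CPM in the 24M libraries, against 14.2, 15.1, 15.2 and 13.6 CPM in the 3M libraries. It had 21.1, 22.8, 21.2 and 20.8 CPM at 18M and 21.6, 20.9, 20.7 and 18.9 CPM at 12M. No library of a later age reached down to the 3M range. The rise was 1.71-fold at 24M (log2 0.77, SE 0.08, edgeR adjusted p = 2.4e-05), 1.48-fold at 18M (log2 0.56, SE 0.08, adjusted p = 0.00085) and 1.41-fold at 12M (log2 0.50, SE 0.08, adjusted p = 0.0045). Zfp418 (ENSMUSG00000034538, chr7:7171330-7183562, plus strand) has 1 transcript in the table and shares no 31-base stretch with another gene.

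The upstream sequences of the members that changed differ in composition, and 4 are shown, 2 from genes that rose and 2 from genes that fell. They come from RefSeq on GRCm38.p6, run 5′ to 3′ on the gene's strand and end at the base before the earlier of the RefSeq and GENCODE starts. Capitals mark matches to any of 3 motifs, searched on both strands. The first is the GC box, GGGCGG, which Sp and Klf factors bind. The second is the CCAAT box, which is those letters and is bound by the NF-Y complex. The last is the TATA box, TATAAA, and its 2 matches in Zfp418 overlap each other.
Zfp418: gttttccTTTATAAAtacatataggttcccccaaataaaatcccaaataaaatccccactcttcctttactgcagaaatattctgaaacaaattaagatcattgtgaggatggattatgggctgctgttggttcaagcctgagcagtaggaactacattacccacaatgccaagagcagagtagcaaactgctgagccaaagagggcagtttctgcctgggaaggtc
Zfp687: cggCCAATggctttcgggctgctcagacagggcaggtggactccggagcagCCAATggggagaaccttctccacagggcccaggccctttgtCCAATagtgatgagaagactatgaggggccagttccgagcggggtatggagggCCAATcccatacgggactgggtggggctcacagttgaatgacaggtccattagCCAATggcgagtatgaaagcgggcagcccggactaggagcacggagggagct
Zfp280b: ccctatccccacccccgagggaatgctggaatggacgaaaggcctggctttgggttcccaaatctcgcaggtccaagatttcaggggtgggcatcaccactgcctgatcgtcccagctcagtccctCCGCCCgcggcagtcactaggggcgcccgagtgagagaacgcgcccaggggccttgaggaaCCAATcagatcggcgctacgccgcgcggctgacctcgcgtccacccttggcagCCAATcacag
Zfp518b: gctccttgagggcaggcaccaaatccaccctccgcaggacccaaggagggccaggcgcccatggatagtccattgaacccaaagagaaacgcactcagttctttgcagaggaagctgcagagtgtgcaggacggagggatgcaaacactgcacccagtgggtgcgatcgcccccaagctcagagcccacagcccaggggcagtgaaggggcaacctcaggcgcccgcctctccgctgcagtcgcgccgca
They lie at chr7:7171103-7171329 (plus strand), chr3:95015458-95015707 (minus), chr10:76032362-76032611 (plus) and chr5:38684827-38685076 (minus). The Zfp418 sequence holds 0 CG pairs in 227 bases at 41.9% GC. The 250 bases before its RefSeq start, which run 23 bases further, hold 2 CG pairs, 1 GC box and 1 CCAAT box, and the shares of promoters given here use that longer window. The Zfp687 sequence holds 5 CCAAT boxes, and 0.213% of the 32851 promoters hold 5 or more. Zfp280b has 19 CG pairs, 1 GC box and 2 CCAAT boxes, and Zfp518b has 12 CG pairs and no match to the 3 motifs. Over all 32851 promoters 32.7% hold a GC box, 33.8% a CCAAT box and 12.4% a TATA box. Among 269 promoters of the 220 members that matched, 43.5% hold a GC box, 44.2% a CCAAT box and 5.58% a TATA box. Their median was 13 CG pairs, 9 with the KRAB pattern and 17 without, against 6 over all promoters. These matches are letters only and carry no measure of binding. The members were selected on level and the 32851 promoters were not. The part of that selection in these differences was not tested.

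Zfp687 was higher at 24M. With Zfp592 and Zmynd8 its protein forms a chromatin module, and human ZNF687 is mutated in Paget disease of bone. It had 91.6, 84.9, 98.7 and 92.1 CPM in the 24M libraries, against 64.5, 65.8, 75.3 and 72.3 CPM in the 3M libraries. All 24M libraries lay above all 3M libraries, whereas the 18M libraries (71.7 to 77.3 CPM) and the 12M libraries (71.6 to 78.5 CPM) overlapped the 3M range. Zfp687 (ENSMUSG00000019338, chr3:95006590-95015448, minus strand) was 1.32-fold higher at 24M (log2 0.40, SE 0.07, edgeR adjusted p = 0.0016). At 18M its log2 fold change was 0.11 (SE 0.07, adjusted p = 0.55). Per length it averaged 29.5 ± 1.77 CPM per kilobase in 3M, 32.1 ± 1.85 in 12M, 35.3 ± 0.735 in 18M and 38.8 ± 2.15 in 24M rods (SD, n = 4), a larger step by 18M than its CPM shows. Short transcripts weigh more in this measure. A 370-base transcript took 3.99 ± 0.312% of its estimated counts at 3M and 5.56 ± 1.08% at 18M (SD, n = 4 each). The part of that transcript in the step was not tested. The authors' deposited table gives Zfp687 log2 differences from 3M of 0.15, 0.30 and 0.38 at 12M, 18M and 24M. No test set 24M against 18M. Its partner Zfp592 averaged 84.7 ± 9.69 CPM at 24M and 77.3 ± 8.48 CPM at 3M (SD, n = 4 each; adjusted p = 0.68).

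Zfp521, on chromosome 18, encodes a protein of 27 fingers by the pattern, a relative of Zfp423 that acts in blood and neural progenitors. It had 69.6, 70.1, 54.6 and 69.9 CPM in the 24M libraries, against 50.7, 51.8, 48.4 and 39.6 CPM in the 3M libraries. The groups did not overlap, with 1 low library in each, replicate 3 at 24M and replicate 4 at 3M. It was 1.39-fold higher at 24M (log2 0.47, SE 0.11, edgeR adjusted p = 0.017). Leaving out 3M replicate 4 or any of 24M replicates 1, 2 and 4 raised the adjusted p to between 0.058 and 0.061. Zfp423 was no member, with a mean of 2.02 CPM.

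Zfp839 and Zfp641 showed small rises. Zfp839 had 43.3, 40.8, 42.1 and 44.3 CPM in the 24M libraries, against 34.9, 36.1, 35.1 and 35.2 CPM in the 3M libraries, a tight spread at both ages with no overlap. It was 1.21-fold higher at 24M (log2 0.27, SE 0.06, edgeR adjusted p = 0.018) and 1.22-fold higher at 18M (log2 0.29, SE 0.06, adjusted p = 0.018). The KRAB gene Zfp641 had 44.8, 39.7, 34.9 and 45.0 CPM in the 24M libraries, against 32.2, 30.2, 34.6 and 30.04 CPM in the 3M libraries. Its lowest 24M library, replicate 3, lay close to the highest 3M library. Zfp641 was 1.29-fold higher (log2 0.37, SE 0.09, adjusted p = 0.035). That call was lost without any 1 of 9 libraries, with adjusted p up to 0.13, and the call of Zfp839 without any 1 of 4, with adjusted p up to 0.067. The 18M call of Zfp839 was lost without any 1 of 6 libraries, with adjusted p up to 0.064.

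Zfp791, a KRAB gene with 15 fingers, passed at 18M and in no other comparison. It had 13.0, 12.8, 11.3 and 12.7 CPM in the 18M libraries, against 9.8, 9.1, 9.6 and 8.3 CPM in the 3M libraries. The 24M libraries, at 10.4, 12.4, 9.3 and 12.0 CPM, overlapped the 3M range. Zfp791 was 1.36-fold higher at 18M (log2 0.44, SE 0.10, edgeR adjusted p = 0.03) and had a log2 fold change of 0.26 at 24M (adjusted p = 0.23). The difference between 24M and 18M was not tested. Leaving out any 1 of 18M replicates 1, 2 and 4 or 3M replicates 2, 3 and 4 ended the 18M call, with adjusted p up to 0.12.

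The 2 members that fell were Zfp280b, a relative of the fly insulator protein suppressor of Hairy-wing, and Zfp518b, whose human counterpart has been reported to bind histone methyltransferases. Zfp280b had 26.9, 27.7, 30.4 and 29.5 CPM in the 24M libraries, against 36.1, 35.2, 32.7 and 35.9 CPM in the 3M libraries. It was 1.22-fold lower (log2 -0.29, SE 0.07, edgeR adjusted p = 0.024), and every library of the 3 later ages lay below every 3M library. Zfp518b had 10.7, 11.9, 11.04 and 11.4 CPM in the 24M libraries, against 15.5, 15.9, 13.0 and 13.2 CPM in the 3M libraries. It was 1.28-fold lower (log2 -0.36, SE 0.09, adjusted p = 0.027), with no overlap at 24M or 18M. The call of Zfp280b was lost without any 1 of 6 libraries, with adjusted p up to 0.096, and that of Zfp518b without any 1 of 4, with adjusted p up to 0.12.

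**Figure D3:**
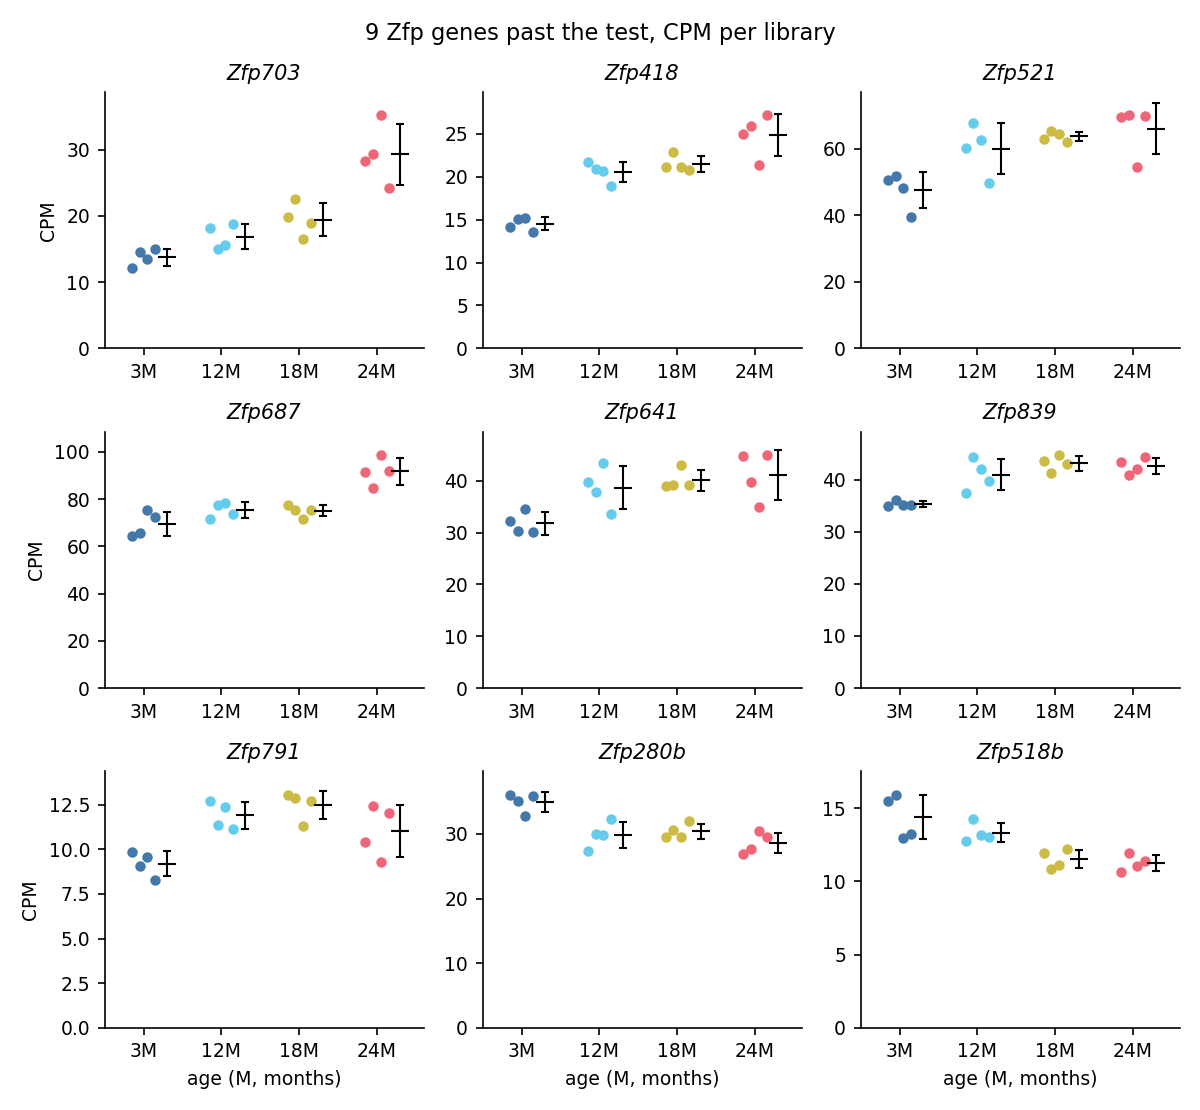
CPM of the 9 Zfp genes past the test in at least 1 comparison, with 1 point per library, ages in rising order and a bar for the mean ± SD (n = 4). Zfp703 and Zfp418 are highest at 24M, Zfp791 is highest at 18M, and Zfp280b and Zfp518b are lowest at 24M.

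The authors' deposited table of differential expression held all 260 members, with 1 adjusted p per gene for any difference among ages. Of these, 59 (22.7%) had in the authors' deposited table an adjusted p under 0.05 for any difference, beside 26.7% of all genes in it. In the authors' deposited table Zfp418 had a log2 difference of 0.84 at 24M (adjusted p = 1.8e-05), Zfp703 one of 0.98 (adjusted p = 9.3e-05) and Zfp280b one of -0.32 (adjusted p = 0.018). Zfp518b had one of -0.65 in the authors' deposited table, with an adjusted p of 0.054.

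5 more members with a known part in the eye or the nervous system were looked at by name, and none of these 5 passed edgeR's test at 24M. Zfp513, whose human counterpart is mutated in a form of retinitis pigmentosa, averaged 32.5 ± 6.95 CPM at 24M and 30.7 ± 2.50 CPM at 3M (SD, n = 4 each; edgeR adjusted p = 0.91). Zfp644, whose human counterpart is mutated in high myopia, averaged 249.9 ± 79.1 CPM at 24M and 276.2 ± 46.1 CPM at 3M (adjusted p = 0.87). Zfp462, a gene of human neurodevelopmental disease, averaged 279.8 ± 44.1 CPM at 24M and 267.6 ± 18.4 CPM at 3M (adjusted p = 0.91). Both Zfp644 and Zfp462 were among the most counted members, and their 24M and 3M libraries overlapped. Zfp746 (PARIS), a KRAB repressor degraded through Parkin, averaged 27.1 ± 2.40 CPM at 24M and 27.5 ± 2.02 CPM at 3M (adjusted p = 0.96). Zfp365, which acts in neuron and oligodendrocyte development in rodents, averaged 79.2 ± 3.61 CPM at 24M and 87.4 ± 6.85 CPM at 3M (adjusted p = 0.43). By the authors' deposited table, 3 of these 5 had an adjusted p under 0.05 for any difference among ages. These were Zfp365, at 0.0068 with a log2 difference of -0.36 at 24M in the authors' deposited table, and Zfp462, at 0.031 with 0.21. The last was Zfp513, at 0.04 with -0.26, opposite in sign to the difference of its CPM means above. For Zfp513, 24M replicate 3 had 42.4 CPM, against 26.7 to 31.9 CPM in the other 24M libraries. That replicate is absent from the authors' normalized table, and which libraries the deposited test used was not established here.

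4 members that act on RNA or protein were also looked at by name, and none of the 4 passed edgeR's test at 24M. Zfp36l2, which binds AU-rich elements and brings in deadenylases, averaged 198.0 ± 19.7 CPM at 24M and 198.1 ± 22.4 CPM at 3M (SD, n = 4 each; edgeR adjusted p = 1). Its relatives Zfp36 and Zfp36l1 were no members, with means of 5.89 and 0.956 CPM. Zfp598, a ubiquitin ligase whose human counterpart senses collided ribosomes, averaged 50.7 ± 10.4 CPM at 24M and 46.6 ± 5.49 CPM at 3M (adjusted p = 0.79), with 66.2 CPM in 24M replicate 3 and 43.9 to 47.6 CPM in the other 24M libraries. Zfp91, also a ubiquitin ligase, averaged 135.7 ± 20.1 CPM at 24M and 153.2 ± 14.02 CPM at 3M (adjusted p = 0.59). Zfp326, whose human counterpart is in a complex that couples elongation to splicing, averaged 56.7 ± 11.9 CPM at 24M and 59.5 ± 4.47 CPM at 3M (adjusted p = 0.91). Of 23 tested genes of deadenylation and AU-rich element decay, 0 passed edgeR's test at 24M. Of these, 1 had an unadjusted p under 0.05, and DESeq2 called 0. Over all 12177 tested genes these numbers were 518, 1706 and 772.

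Zfp410 is known for activating essentially one gene, Chd4, the helicase of the NuRD complex. Zfp410 averaged 30.03 ± 1.14 CPM at 24M and 28.3 ± 0.662 CPM at 3M (SD, n = 4 each; edgeR adjusted p = 0.74). Chd4 averaged 361.7 ± 22.9 CPM at 24M and 339.8 ± 24.4 CPM at 3M (adjusted p = 0.72). Neither passed the test.

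The corepressors that KRAB proteins recruit were expressed in rods, and none passed at 24M. Trim28 averaged 81.5 ± 18.4 CPM at 24M and 80.1 ± 7.77 CPM at 3M (SD, n = 4 each; edgeR adjusted p = 0.98). Setdb1 averaged 73.0 ± 3.19 CPM at 24M and 69.6 ± 3.74 CPM at 3M (adjusted p = 0.76). The HP1 gene Cbx1 averaged 54.6 ± 3.81 CPM at 24M and 65.3 ± 2.64 CPM at 3M (adjusted p = 0.052). Over the 25 tested genes of this list, 0 passed edgeR's test at 24M, 3 had an unadjusted p under 0.05, and DESeq2 called 2. Beside these, 518, 1706 and 772 of all 12177 tested genes did so. The median log2 fold change of the 25 was 0.03, against 0.01 over all genes. At 18M 1 of the 25 fell, Mta1, a NuRD subunit (log2 -0.52, SE 0.13, edgeR adjusted p = 0.045), beside 117 of all 12177 genes.

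Among other zinc finger families, 1 of 36 tested Zbtb genes was higher at 24M and 0 lower. That gene, Zbtb8a, averaged 44.5 ± 3.81 CPM at 24M and 13.6 ± 0.607 CPM at 3M (SD, n = 4 each; log2 1.71, SE 0.10, edgeR adjusted p = 1.7e-08). None of 19 SCAN genes and none of 12 Klf and Sp genes passed edgeR's test at 24M, with 1 gene each at an unadjusted p under 0.05 and 0 and 1 called by DESeq2. Of 12 tested immediate-early genes, which respond within minutes to stress such as tissue dissociation, 0 passed edgeR's test at 24M, 1 had an unadjusted p under 0.05, and DESeq2 called 1. Over all 12177 tested genes these numbers were 518, 1706 and 772. The linear term of age was positive in 1 immediate-early gene, Atf3 (edgeR adjusted p = 0.028), beside 346 of all 12177 genes. It was negative in 1 Klf gene, Klf9 (edgeR adjusted p = 0.036), beside 238 of all genes.

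The larger movement of the Zfp genes was from library to library within an age. For each gene the log2 CPM of a library was set against its own mean over 16 libraries, and the median of these deviations was taken over the members. It was 0.09, 0.04, -0.08 and -0.16 in the 3M libraries, replicates 1 to 4, and 0.11, 0.09, 0.12 and -0.16 in the 12M libraries. It was 0.04, 0.06, 0.15 and -0.002 in the 18M libraries, and 0.09, 0.02, -0.30 and 0.07 in the 24M libraries. Replicate 3 at 24M and replicate 4 at 12M and at 3M were low, and the ages overlapped. Over all tested genes the same median stayed between -0.007 and 0.02. Scaling between libraries and centring each gene hold that median near 0, so it does not show that other genes moved less. The KRAB members had a median of -0.49 in 24M replicate 3, -0.33 in 12M replicate 4 and 0.24 in 18M replicate 3. For members without the KRAB pattern it was 0.03, 0.01 and -0.02 in the same libraries. Members without KRAB moved too, but in both directions: 48 of the 114 correlated above 0.5 with the members' median and 48 below -0.5. The median correlation between pairs of KRAB members over the 16 libraries was 0.537, against -0.00396 between pairs without KRAB and -0.00167 between all tested genes. A median near 0 can hide strong correlations of both signs. All of these correlations describe 16 libraries that every gene shares.

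The deviations of the members went with the GC content of their transcripts. KRAB members had a median GC content of 43.3%, members without KRAB 49.6% and other tested protein-coding genes 49.5%. Split into 3 bins by GC, the lowest bin (35.6 to 42.7%) held 86 members, 66 of them KRAB genes, and the highest (49.2 to 64.6%) held 87, 28 of them KRAB genes. In 24M replicate 3 the median deviation was -1.05 in the lowest bin and 0.30 in the highest. In 18M replicate 3 it was 0.48 in the lowest bin and -0.18 in the highest. Both classes followed GC: in 24M replicate 3 the 28 KRAB genes of the highest bin had a median deviation of 0.19 and the 20 genes without KRAB of the lowest bin one of -0.90. Those 20 genes had a median of -0.62 in 12M replicate 4 and 0.42 in 18M replicate 3. Across genes within 24M replicate 3, the correlation of deviation with GC was 0.861 over KRAB members and 0.878 over the others. In 18M replicate 3 it was -0.847 and -0.826. Genes of 1 library are not independent replicates.

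**Figure D4:**
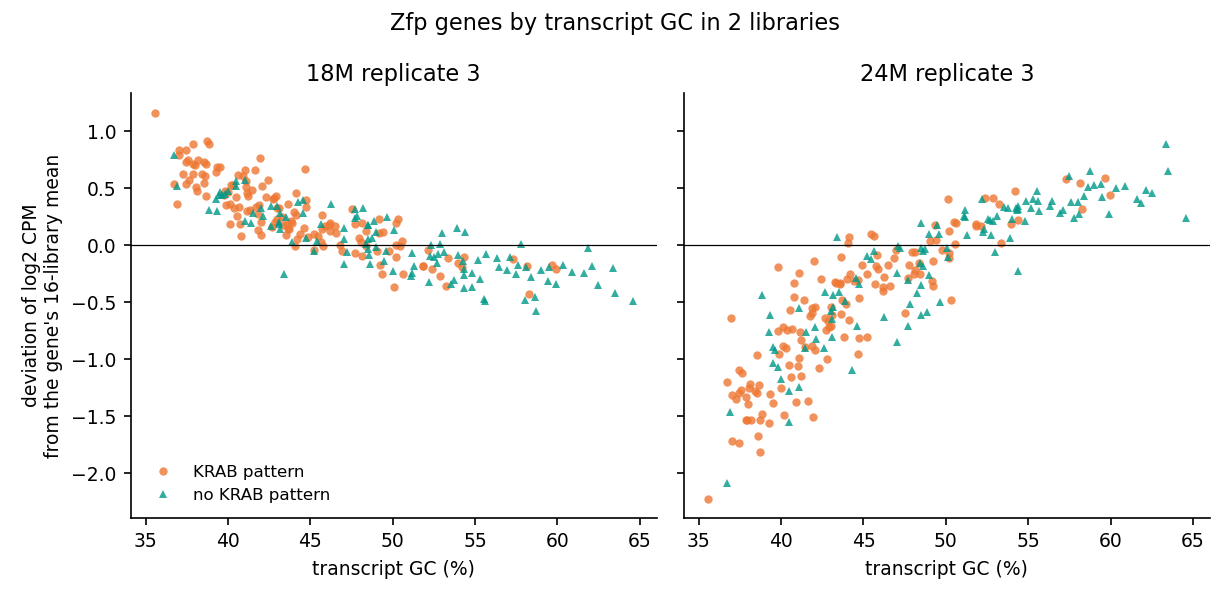
Deviation of each Zfp gene's log2 CPM from its own 16-library mean against the GC content of its transcripts (%), in 18M replicate 3 on the left and 24M replicate 3 on the right, with circles for the KRAB pattern and triangles for none. The low-GC genes lie above 0 in 18M replicate 3 and below 0 in 24M replicate 3, in both classes.

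The slope of log2 CPM on GC over all 12170 tested genes with a sequence gives the same property for the whole library. It was 0.52 log2 units per 10 GC points in 24M replicate 3, 0.38 in 12M replicate 4 and 0.29 in 3M replicate 4, and -0.30 in 18M replicate 3. In the other 12 libraries it lay between -0.23 and 0.16. The ages overlapped, with a mean of 0.08 ± 0.17 in 3M rods, -0.06 ± 0.30 in 12M rods, -0.08 ± 0.15 in 18M rods and 0.06 ± 0.31 in 24M rods (SD, n = 4 each). Its part in the members' movement was not tested.

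**Figure D5:**
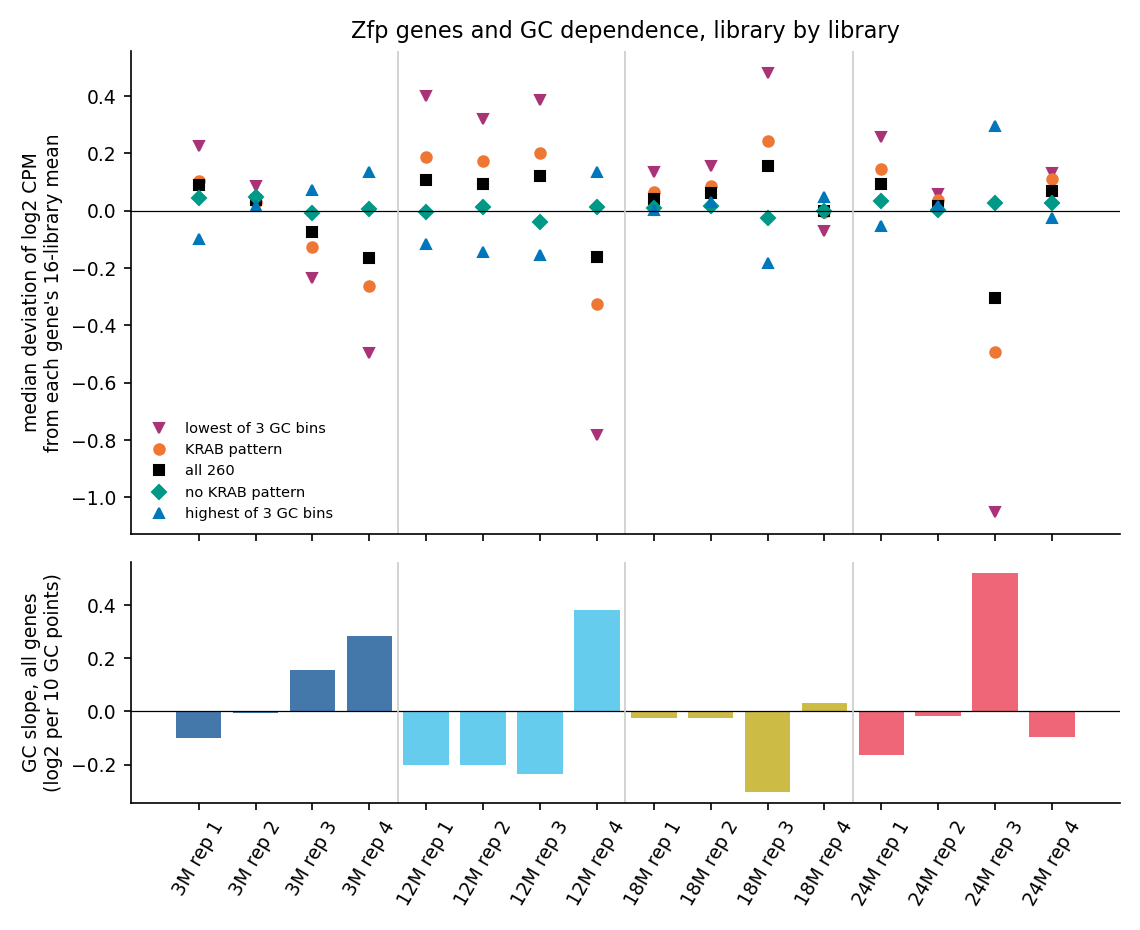
The upper panel gives the median deviation of log2 CPM from each gene's 16-library mean for all 260 Zfp genes, the KRAB and other members, and the lowest and highest of 3 bins by transcript GC, in 16 libraries ordered by age. The lower panel gives the slope of log2 CPM on GC over all tested genes, in log2 units per 10 GC points: low-GC members are lowest where the slope is highest, in 24M replicate 3 (slope 0.52) and 12M replicate 4 (slope 0.38).

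Single genes showed the size of it. Zfp638 (41.1% GC) had 299.3, 265.6, 94.8 and 256.1 CPM in the 24M libraries, against 285.9, 254.7, 176.0 and 129.5 CPM in the 3M libraries. Zfp292 (40.5% GC), a transcription factor of human neurodevelopmental disease, had 265.7, 249.5, 67.3 and 228.5 CPM at 24M, against 239.0, 274.0, 152.8 and 106.9 CPM at 3M. In both, 24M replicate 3 lay below every 3M library while the other 24M libraries lay within or just above the 3M range. Zfp335 (59.4% GC), which acts in neural progenitors, went the other way, with 55.4, 56.7, 80.5 and 57.3 CPM at 24M, against 48.6, 53.3, 63.2 and 60.7 CPM at 3M. Of 156 members whose deviations correlated above 0.5 with the members' median, 108 were KRAB genes and the median GC was 42.1%. Of 66 members below -0.5, 18 were KRAB genes and the median GC was 55.0%.

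With this slope as a covariate in the edgeR fit, a setting chosen after seeing the data, 14 members (5.38%) were higher and 22 (8.46%) lower at 24M, beside 10.1% and 10.3% of all tested genes. All 8 genes called at 24M without it were called with it. Zfp703 kept a log2 fold change of 1.09 and Zfp418 one of 0.76 there.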

How the data were processed

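Per the submitters' processing notes, the authors used kallisto 0.42.5, edgeR 3.13.9, limma 3.32.2 and GRCm38.p4. The authors deposited estimated counts per transcript, gene CPM (a signal scaled to library size) and a differential expression table with log2 differences, an F score and p-values. The estimated counts were summed per gene with GENCODE M21 and rounded. Genes reaching 5 CPM in 4 or more libraries were fitted with edgeR 4.0.16 (TMM, quasi-likelihood, all 16 libraries, age as a factor, or in months as a linear term) in R 4.3.3, with Benjamini-Hochberg adjustment over 12177 genes. The steps were run on simulated counts that held no library-wide GC or length effect, so that run does not bear on such effects. CPM in the text is TMM-scaled; CPM per kilobase divides each transcript's counts by its length. Alternatives used DESeq2 1.42.0, limma 3.58.1 (log2 of the authors' CPM with a pseudocount of 1), other scalings, filters, covariates and library sets. No 2 libraries had near-identical counts (lowest chi-square per degree of freedom 8.99).

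Genes named are those past the test without overlap, the 6 rising and 6 falling with the smallest linear p (not all described), the 8 highest per length by TPM, the 3 on each side of the 10 CPM limit and a fixed set of 49 genes, 39 of them members. Members and lists were chosen with earlier results of these data known. Libraries of different ages that share a number showed no clear pairing and were not treated as paired. Fingers and KRAB boxes came from translated GENCODE coding sequences, promoters from RefSeq.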

Additional observations from a re-analysis of the deposited data

Results flagged for a closer look

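Within an age, 220 groups of 4 libraries (the named members and the members' median deviation) were screened for a library whose gap to the nearest other, divided by the range, exceeded Dixon's critical value for 4 samples. The groups share the same 16 libraries and are not independent, so the number flagged is no test of an excess. Chance would flag about 1 in 20 independent groups, and 25 were flagged. Of these, 11 were replicate 4 at 12M, 6 replicate 3 at 24M and 6 replicate 3 at 18M, the libraries with the steepest GC slopes at their ages.

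In replicate 4 at 12M the values set apart were Zfp280d at 82.8 CPM (the others 163 to 168), Zfp292 at 74.4 CPM (the others 254 to 290), Zfp318 at 64.6 CPM (the others 106 to 110), Zfp358 at 11.8 CPM (the others 8.02 to 8.54), Zfp385a at 176 CPM (the others 141 to 146), Zfp462 at 213 CPM (the others 309 to 322), Zfp638 at 106 CPM (the others 299 to 310), Zfp644 at 186 CPM (the others 313 to 329), Zfp651 at 16.5 CPM (the others 9.21 to 10.1), Zfp800 at 16.9 CPM (the others 40 to 44). The members' median deviation was -0.16 log2 units there, against 0.093 to 0.121 in the other 12M libraries. Those above the others had a transcript GC of 58.1 to 62.5% and those below one of 39.6 to 48.5%. The part of GC in these values was not tested.

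In replicate 3 at 18M the values set apart were Zfp280d at 182 CPM (the others 138 to 144), Zfp358 at 6.68 CPM (the others 9.34 to 9.76), Zfp385a at 122 CPM (the others 148 to 150), Zfp445 at 354 CPM (the others 238 to 251), Zfp641 at 43.1 CPM (the others 38.9 to 39.3), Zfp932 at 38.3 CPM (the others 26.5 to 28.2). Those above the others had a transcript GC of 37.9 to 50.2% and those below one of 58.7 to 62.5%. The part of GC in these values was not tested.

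In replicate 3 at 24M the values set apart were Zfp260 at 25.4 CPM (the others 46.3 to 50.1), Zfp335 at 80.5 CPM (the others 55.4 to 57.3), Zfp521 at 54.6 CPM (the others 69.6 to 70.1), Zfp592 at 99.1 CPM (the others 78.6 to 81.4), Zfp598 at 66.2 CPM (the others 43.9 to 47.6), Zfp651 at 14.7 CPM (the others 9.19 to 9.69). Those above the others had a transcript GC of 52.2 to 59.4% and those below one of 42.1 to 50.1%. The part of GC in these values was not tested.

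Zfp658 had 37 CPM in replicate 1 at 12M, against 29.2 to 30.1 CPM in the other 12M libraries. Zfp384 had 56.6 CPM in replicate 2 at 12M, against 58 to 58.2 CPM in the other 12M libraries.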

How the results depend on the processing

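At 24M against 3M the members higher and lower numbered 10 and 13 with a covariate for each library's slope on length, 14 and 22 with the GC slope (added after seeing the data), 25 and 11 in the 13 libraries that the authors normalized and 25 and 14 by voom with quality weights. Over all tested genes these settings gave 751 and 643, 1231 and 1255, 1470 and 1373, and 1654 and 1657, in that order. These were 12177 genes, or 12050 in the 13 libraries. The number of members lower was 0 without a filter and 0 by limma on the authors' gene CPM. Beside these, 222 of 33433 and 185 of 12141 genes were lower. At 18M against 3M the members higher numbered 1 without a filter, 7 with the length slope, 13 with the GC slope, 7 in the 13 libraries, 7 by DESeq2, 10 with quality weights and 2 on the authors' gene CPM. The members lower there numbered 1, 11, 1, 1 and 8 with the length slope, the GC slope, the 13 libraries, DESeq2 and quality weights. In the same order, the genes higher over all tested genes numbered 229, 420, 654, 444, 330, 652 and 170. The genes lower numbered 243, 452, 261, 198 and 458. At 12M against 3M the members higher and lower were 2 and 0 with the length slope, 6 and 6 with the GC slope, 85 and 31 in the 13 libraries, 3 and 0 by DESeq2 and 101 and 41 with quality weights. Over all tested genes these were 166 and 84, 354 and 248, 2354 and 2269, 214 and 99, and 2878 and 2949. For any difference the count of members was 2 without a filter, 9 with the length slope, 36 with the GC slope and 61 in the 13 libraries. It was 9 by DESeq2, 100 with quality weights and 2 on the authors' gene CPM. The counts over all tested genes were 426, 881, 1757, 3492, 665, 5434 and 308. For the linear term the members higher were 3 without a filter, 13 with the GC slope and 15 with quality weights, and the members lower 1 without a filter, 9 with the length slope, 21 with the GC slope, 4 in the 13 libraries, 11 with quality weights and 1 on the authors' gene CPM. For this term the genes higher over all tested genes numbered 362, 1147 and 1202, and the genes lower 271, 509, 1093, 457, 1186 and 216. The cause of these shifts between settings was not tested. DESeq2's size factors and a minimum of 1 CPM kept every count within 1.5 times.

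Numbers shared between ages showed no clear pairing of the libraries. Of 24 same-numbered pairs, 11 had deviations correlated above 0.1, and all lay between -0.744 and 0.726. Pairs of different number and age lay between -0.807 and 0.849, so a weak pairing could not be seen. Of 16 libraries, 4 correlated best with their own number. With the replicate number as a block, 5 members were higher and 1 lower at 24M, and 2 were higher at 18M. At 12M 1 was higher, and 3 showed any difference. Over all 12177 tested genes these numbers were 285, 159, 171, 99 and 266.

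Leaving out 1 library at a time, the members higher and lower numbered 3 to 6 and 0 to 3 at 24M, 1 to 7 and 0 to 0 at 18M, 1 to 3 and 0 to 2 at 12M, 3 to 7 for any difference, and 4 to 6 and 1 to 5 for the linear term. At 24M, 3 were higher without replicate 1 or 4 at 24M, and 0 lower without replicate 1 or 2 at 3M or replicate 1 or 4 at 24M. Without replicate 4 at 12M, 7 were higher at 18M, and 3 were higher and 2 lower at 12M. At 18M 1 was higher without replicate 3 or 4 at 3M or replicate 1 or 4 at 18M, and 2 without replicate 1 or 2 at 3M. Any difference was found in 7 without replicate 4 at 12M or replicate 3 at 24M, and the linear term was negative in 5 without replicate 3 at 24M. The 9 genes held 13 calls against 3M, and each kept its direction in every setting. Of 338 alternative fits of these calls 69 missed the threshold, 0 of them for Zfp418 at 3 ages or for Zfp703 and Zfp687 at 24M, and 16 of 26 for Zfp703 at 18M. The members' median log2 fold change at 12M was -0.0793 with the length slope. Counts of the lowest members, such as 192 to 353 for Zfp791, limit their precision.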
